A study of Oryctolagus cuniculus with 18 samples.

Results

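Of the 29587 rabbit genes in the count table, 296 were higher in every operated sample than in every non-operated sample, in retina and in RPE-choroid alike, at 1 month and at 2 months after surgery. The members were chosen on counts per 1000000 (CPM), the count of a gene divided by the summed gene count of its sample and multiplied by 1000000. A gene had to reach a mean of 1 CPM in the retina of non-operated eyes or of 1-month eyes, which 14282 genes did. Its lowest value among the 6 operated samples of each tissue then had to lie above its highest value among the 3 non-operated samples of that tissue. The rise of the members over non-operated eyes is therefore what chose them, and it is given here as a description. The rule set neither the 2 time points nor the 2 tissues against each other, and these comparisons were tested. It used the same samples, however, so both tests were made on genes chosen with those values.

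The retina holds the photoreceptors and the neurons and glia that serve them. The retinal pigment epithelium lies behind the photoreceptors and maintains them, and the choroid beneath it carries blood vessels, pigment cells, connective tissue and immune cells. Vitrectomy removes the vitreous gel in front of the retina, and cells of the eye are known to answer injury and foreign material with stress, wound healing and inflammatory gene programmes. Poly(CEP) is a thermogelling polymer built from blocks of poly(ethylene glycol), poly(propylene glycol) and poly(ε-caprolactone). It sets to a hydrogel in the vitreous cavity and sheds micelles as it erodes.

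The eyes were from male New Zealand White rabbits aged between 4 and 6 months. Non-operated eyes served as controls, and operated eyes underwent vitrectomy, were filled with poly(CEP) and were collected after 1 or 2 months, in each case without induction of proliferative vitreoretinopathy. Each tissue had 3 samples per group, 18 samples in all. The sample labels call the second tissue retinal pigment epithelium and the study's methods RPE-choroid, the sheet peeled from the sclera after the retina had been lifted off. Operated eyes also received topical Tobradex, a combination of an antibiotic and a steroid. In the disease model the surgery also used triamcinolone acetonide injected into the vitreous, and whether the operated eyes here received it is not stated. Eyes with vitrectomy but without the polymer were not analysed here, so surgery, polymer and drugs cannot be told apart. In the study's summary of its animals, the 1-month eyes without induction are cases of their own, whereas those kept for 2 months are contralateral to eyes operated for the disease model. Which of them were sequenced is not stated, and if the 2-month samples came from these eyes, time and surgery on the other eye cannot be told apart. The methods call the 3 samples of a condition biological replicates, and the labels name no animals, so the p-values measure the spread between these samples. The samples were bulk tissue, in which more cells of a type and more RNA per cell cannot be told apart.

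The summed gene counts lay between 22335005 and 33505730 per sample. The identifiers are Ensembl rabbit identifiers, and no gene was paired with a name here. Neither markers of cell types nor pathways were therefore analysed here, and no coordinates or sequences are given. Tissue identity was examined instead with 2 scores, averages of log2 CPM over the 200 genes that exceeded the other tissue most across all 18 samples. Neither list held any of the 296 members. The retina-high score was 7.51 to 7.59 in non-operated retina and 6.78 to 7.24 in operated retina. In RPE-choroid it varied widely: 5.30, -0.18 and 6.67 in the 3 non-operated samples, 6.47, 6.73 and 5.73 at 1 month, and 4.62, 4.69 and -0.83 at 2 months. RNA of retina-high genes was thus abundant in 7 of the 9 RPE-choroid samples and low in non-operated replicate 2 and 2-month replicate 3. The description of that non-operated sample carries an added repeat mark that its count column lacks, so it may be a repeat library. The RPE-choroid-high score in retina was -0.23, -0.23 and -0.11 in non-operated eyes and higher in every operated sample, at 0.49 to 0.98 at 1 month and 0.27 to 1.13 at 2 months. The multi-aligned share, the percentage of reads that HTSeq set aside because they aligned at several sites, also set samples apart. For 2-month replicates 1 and 2 it was 11.7% and 11.1% in retina, with 13.7% and 13.2% in RPE-choroid, against 8.03% to 9.38% in the 6 non-operated samples.

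The ordering was met far more often in retina than in RPE-choroid. In retina, 2862 of the 14282 genes (20%) were raised at both times, and in RPE-choroid 485 were (3.4%). Samples also varied more in RPE-choroid, with a common biological coefficient of variation of 0.42 against 0.23 in retina. The part of this spread in the difference was not tested. The 296 members were 2.07% of the genes at the minimum level, 10.3% of those raised in retina and 61.0% of those raised in RPE-choroid. The opposite pattern, lower in all operated samples of both tissues, was met by 32 genes (0.224%). Only 2 genes were raised in retina and lowered in RPE-choroid, and 0 showed the reverse.

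Most members passed the ordering by a narrow margin. The lowest operated value was above the highest non-operated value by a median factor of 1.203 in retina and 1.08 in RPE-choroid. In 188 of the 296 members the smaller of both factors was under 1.1, and in 2 it was over 2. The member nearest to the boundary had 25.873 CPM in its lowest operated RPE-choroid sample and 25.864 CPM in its highest non-operated one. The nearest gene outside had 21.187 CPM and 21.189 CPM in the same order, while its retina values were parted by a factor of 1.14.

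The number of members depended on the scaling and on 3 samples of RPE-choroid. TMM normalisation, which scales samples so that most genes keep their level, gave factors of 0.932 to 0.957 in non-operated retina and 0.999 to 1.11 in operated retina. In RPE-choroid they were 0.882 to 0.975 in non-operated eyes and 0.908 to 1.06 in operated eyes. On TMM-scaled CPM the same ordering was met by 152 genes, of which 136 were among the 296 members. Genes lowered in both tissues were not counted on this scale. The 136 kept members had the larger changes, with a median log2 fold change in retina of 1.16 at 1 month and 1.1 at 2 months, and in RPE-choroid of 0.82 and 0.62. For the 160 members that did not meet it on this scale the medians were 0.40, 0.36, 0.28 and 0.29. Leaving out 1 sample at a time could only add genes to the ordering, apart from the minimum level. Without 2-month replicate 3 of RPE-choroid the ordering was met by 525 genes, and without non-operated replicate 2 or 3 of RPE-choroid by 473 or 475.

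Together, the 296 members made up a larger share of the RNA in every operated sample. Their CPM summed to 12233, 13214 and 12115 in the 3 non-operated retina samples. At 1 month the sums were 23061, 22788 and 24202 in retina. At 2 months they were 25594, 26361 and 18468. Retina replicate 3 at 2 months was thus the lowest of the operated retina samples, and it was the lowest 2-month sample for 266 members (89.9%), against 53.6% of all 14282 genes. Its multi-aligned share was 8.44%, within the range of the non-operated samples, and its RPE-choroid-high score was also the lowest of the operated retina samples. The part of either measure in the lower sum was not tested. In RPE-choroid the sums were 14252, 14832 and 14491 in non-operated eyes, 22283, 22542 and 24610 at 1 month, and 21866, 20701 and 20014 at 2 months. In non-operated eyes the members thus took 1.252% of the gene counts of retina and 1.45% of those of RPE-choroid, and at 1 month 2.34% and 2.31%. The sum was spread over many genes: 39 members made up 50% of it in non-operated retina and 40 at 1 month, and the 10 most abundant members held between 20.7% and 23.6% of it in the 6 groups.

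**Figure D1:**
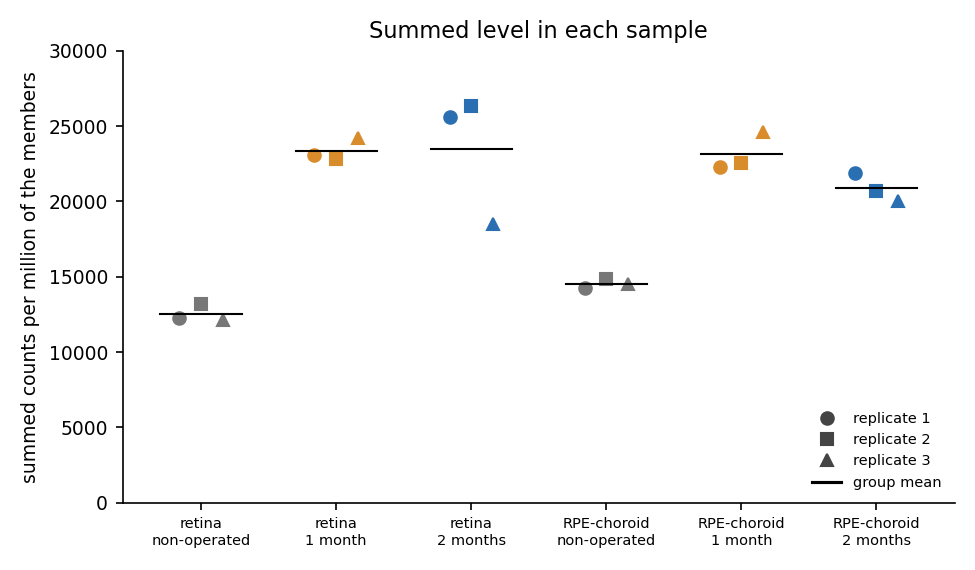
Summed CPM of the 296 members (y axis) in each of the 18 samples by tissue and time (x axis), with replicates as symbols and group means as lines. All 12 operated samples lie at or above 18468, and all 6 non-operated samples at or below 14832.

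ENSOCUG00000006029 had the largest smallest change of the 4 comparisons with non-operated eyes among members with a mean of at least 1 CPM in non-operated samples of both tissues. In retina it was at 10.6, 6.02 and 2.77 CPM in the 3 non-operated samples. At 1 month it was at 323, 277 and 188 CPM, and at 2 months at 575, 600 and 61.6 CPM. The 2-month samples were far apart, with replicate 3 below all 3 samples of 1 month, although it was above each non-operated sample. In RPE-choroid the gene was at 85.9, 95.6 and 37.8 CPM in non-operated eyes, at 572, 558 and 428 CPM at 1 month, and at 883, 532 and 264 CPM at 2 months. Every operated retina sample lay within or above the range of non-operated RPE-choroid. The log2 fold change over non-operated eyes was 5.20 ± 0.93 (SE) at 1 month and 5.80 ± 0.95 at 2 months in retina, and 2.68 ± 0.48 and 2.84 ± 0.48 in RPE-choroid (n = 3 samples per group). Between 2 months and 1 month it differed by 0.59 ± 0.77 in retina and 0.16 ± 0.45 in RPE-choroid on the log2 scale, and neither difference passed the edgeR quasi-likelihood test (adjusted p = 1.00 and 0.816). In non-operated eyes the level was lower in retina than in RPE-choroid by a log2 difference of -3.60 ± 0.64 (edgeR quasi-likelihood test, adjusted p = 0.00987), and the sample ranges did not overlap.

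ENSOCUG00000012233 was the second by the same measure, and had tighter groups in retina. In non-operated retina it was at 1.87, 1.57 and 1.32 CPM. At 1 month it was at 53.8, 47.5 and 41.7 CPM, and at 2 months at 50.8, 64.2 and 32.01 CPM. Both operated groups overlapped each other and lay far above the non-operated samples. In RPE-choroid its values were 6.03, 8.42 and 3.44 CPM in non-operated eyes, 40.0, 33.7 and 50.5 CPM at 1 month, and 36.0, 27.0 and 10.7 CPM at 2 months. The log2 fold change over non-operated eyes was 4.77 ± 0.26 (SE) at 1 month and 4.78 ± 0.26 at 2 months in retina, and 2.66 ± 0.48 and 1.95 ± 0.46 in RPE-choroid (n = 3 samples per group). Its log2 change from 1 to 2 months was 0.01 ± 0.21 in retina and -0.71 ± 0.45 in RPE-choroid, where the lowest value was that of 2-month replicate 3, and neither passed the edgeR test (adjusted p = 1.00 and 0.291). In non-operated eyes it was also lower in retina than in RPE-choroid, by a log2 difference of -2.02 ± 0.43 (edgeR test, adjusted p = 0.0178). Both genes met the ordering on TMM-scaled CPM too. The change from 1 to 2 months did not pass the test of a difference between tissues for either gene (adjusted p = 0.803 and 0.425 in 1 edgeR fit of all 18 samples).

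**Figure D2:**
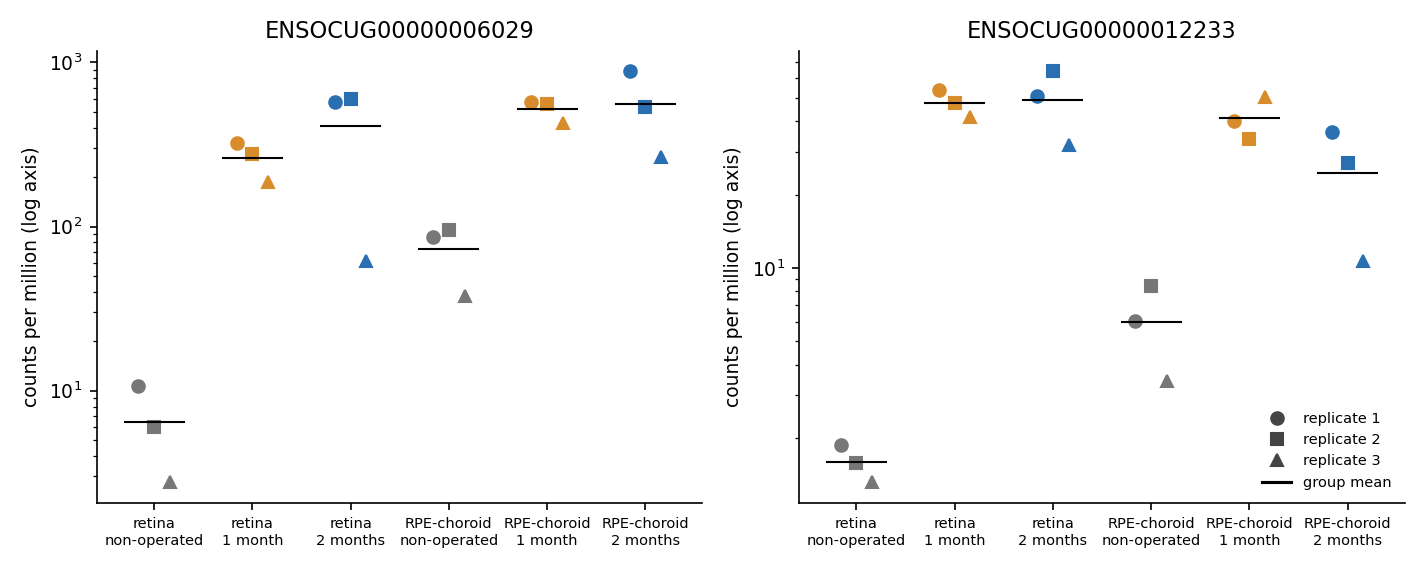
CPM (y axis, log scale) of ENSOCUG00000006029 and ENSOCUG00000012233 in each sample by tissue and time (x axis), with replicates as symbols and group means as lines. In both genes the non-operated samples lie below all operated samples of the same tissue, and 2-month replicate 3 is the lowest operated sample of each tissue.

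The changes of the members over non-operated eyes were mostly modest, with a tail of large ones. In retina the median log2 fold change was 0.67 at 1 month, with quartiles at 0.32 and 1.70, and 0.64 at 2 months, with quartiles at 0.31 and 1.55. In RPE-choroid it was 0.49 at 1 month, with quartiles at 0.24 and 0.86, and 0.46 at 2 months, with quartiles at 0.25 and 0.92. Over all genes tested, 15878 in retina and 16322 in RPE-choroid, the medians were 0.01, 0.00, -0.01 and -0.01. The largest fitted changes belonged to members with few reads in non-operated eyes, depend on the count added in the fit, and are not given. More than a 2-fold rise was fitted for 111 members at 1 month and 105 at 2 months in retina (10.2% and 9.63% of all genes tested), and for 60 and 63 in RPE-choroid (8.83% and 5.48%). In 2 members at 1 month in retina and 1 at 1 month in RPE-choroid, the fitted change was below 0 on the TMM scale, although the CPM were above those of non-operated eyes.

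**Figure D3:**
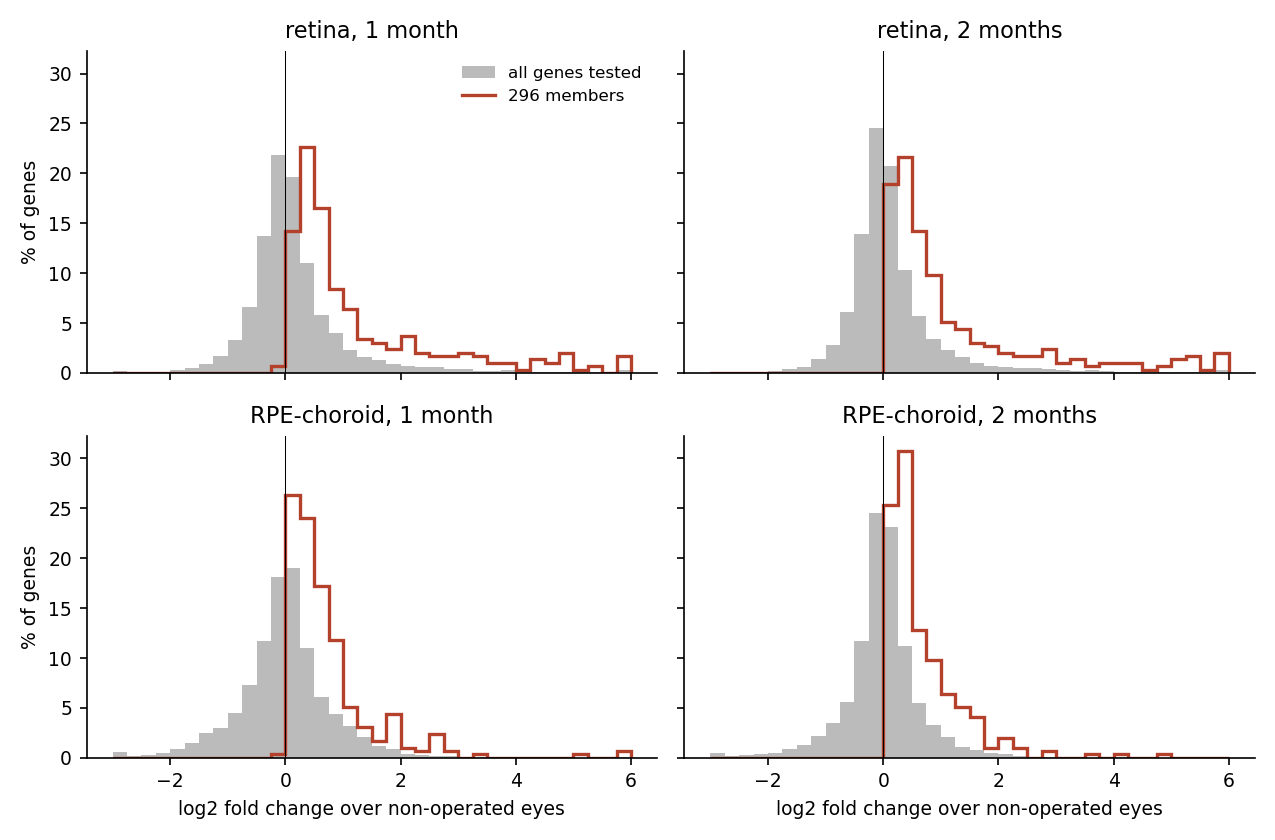
Distribution of the fitted log2 fold change over non-operated eyes (x axis) as the percentage of genes (y axis) for the 296 members (red line) and all genes tested (grey), with values beyond the axis in the end bins. The members sit to the right of 0, as the choice of members requires, with medians between 0.46 and 0.67 and a longer tail in retina.

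By the quasi-likelihood test of edgeR (adjusted p under 0.05), 190 of the 296 members were called higher in retina at 1 month (10.9% of all genes tested were) and 159 at 2 months (8.21%). In RPE-choroid 1 member was called at 1 month (0.0123%) and 0 at 2 months (0.0%), although 155 and 166 members had an unadjusted p under 0.05 (7.82% and 6.84% of all genes tested). In retina DESeq2 called 201 (9.56% of 23306 genes) and 184 (7.81%). For RPE-choroid its counts were 103 (2.37% of 23135 genes) and 51 (1.04%). The DESeq2 shares are of all genes with any count in the tissue. These are more genes than edgeR tested, and all members passed edgeR's filter, so the sets are unlike. Without non-operated replicate 3, the sample with the highest retina-high score of its group, edgeR called 66 members in RPE-choroid at 1 month. Higher calls over all genes went from 2 to 674 with it. In retina at 1 month the count was 119 and 122 without non-operated replicates 1 and 3. Over all genes 847 and 953 were then called higher, instead of 1731. In retina at 2 months it was 99 and 98 without 2-month replicates 1 and 2, and 103 without non-operated replicate 1. Higher calls over all genes were 629, 602 and 653 in the same order, instead of 1304. Without both 2-month replicates with the larger multi-aligned share, 1 sample was left at 2 months, so only the change is given. The median log2 fold change of the members was then 0.43 instead of 0.64. These are the contrasts that chose the members, so nothing is read from the counts.

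A class of 38 members (12.8%) was more than 2-fold higher in all 4 fitted comparisons. They were low in non-operated eyes, with a median of 0.826 CPM in retina and 1.78 CPM in RPE-choroid. Those under 1 CPM in non-operated retina reached the minimum level only through the 1-month retina. Their low start and large change are thus in part set by the choice of members and of the class. At 1 month the class medians were 11.3 CPM in retina and 7.36 CPM in RPE-choroid, and at 2 months 6.996 and 6.12 CPM. The median log2 fold change of the class was 3.31 at 1 month and 3.44 at 2 months in retina, and 1.95 and 1.57 in RPE-choroid. One member of this class stood at a group mean of 46.8 CPM in non-operated retina, 372 CPM at 1 month and 306 CPM at 2 months, and in RPE-choroid at 155, 421 and 325 CPM. Another went from 64.3 to 196 and 193 CPM in retina and from 50.4 to 190 and 106 CPM in RPE-choroid. These examples were chosen after their values were seen, as the 2 members of the class with the highest level in non-operated retina. On TMM-scaled CPM 34 of the 38 still met the ordering.

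At the other end, 180 members (60.8%) were more than 2-fold higher in none of the 4 comparisons, and 112 of these stayed under 1.5-fold in all 4. The 180 had a median of 36.8 CPM in non-operated retina, 54.6 CPM at 1 month and 55.3 CPM at 2 months. In RPE-choroid the medians were 40.2, 55.7 and 52.8 CPM. This class carried most of the summed level: 10602 of the 12521 CPM of all members in non-operated retina, and 15868 of 23350 CPM at 1 month. On TMM-scaled CPM 55 of the 180 met the ordering and 125 did not.

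The most abundant member in operated retina belonged to this class. It was at 720, 583 and 546 CPM in non-operated retina, at 1193, 1179 and 773 CPM at 1 month and at 887, 1019 and 925 CPM at 2 months. In RPE-choroid it was at 361, 497 and 581 CPM in non-operated eyes, at 907, 993 and 1135 CPM at 1 month and at 929, 696 and 704 CPM at 2 months. The gap between the highest non-operated and the lowest operated sample was narrower in retina (720 and 773 CPM) than in RPE-choroid (581 and 696 CPM). The second most abundant member was at 381 to 435 CPM in non-operated retina and at 600 to 829 CPM in operated retina, with its lowest operated value in 2-month replicate 3. In RPE-choroid it was at 418 to 487 CPM in non-operated eyes and at 548 to 823 CPM in operated eyes.

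The rise was larger in retina than in RPE-choroid for most members, by fitted values. At 1 month 220 of the 296 members had the larger log2 fold change in retina, at 2 months also 220, and at both times 188. The RPE-choroid change was the larger at both times in 44 members. Averaged over both times, the median change was 0.64 in retina and 0.50 in RPE-choroid, and the median difference within a member was 0.20. By this average the retina change was the larger in 222 members. It was the larger in 6605 of the 14238 genes at the minimum level tested in both tissues, whose changes also include falls. Members with large changes in retina tended to have large ones in RPE-choroid (Spearman's rho 0.90 across 296 genes, against 0.49 across the 14238 genes at the minimum level that were tested in both tissues). The choice of members fixes the sign of both changes, genes are not independent replicates, and both changes share the RNA of retina that the RPE-choroid samples held, so this is a description. A group of 25 members was more than 2-fold higher in both retina comparisons and in neither RPE-choroid comparison. Their median log2 fold change was 1.58 and 1.52 in retina, against 0.55 and 0.83 in RPE-choroid. Of the opposite kind there were 0 members. Whether the rise of a member differed between the tissues was not tested.

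**Figure D4:**
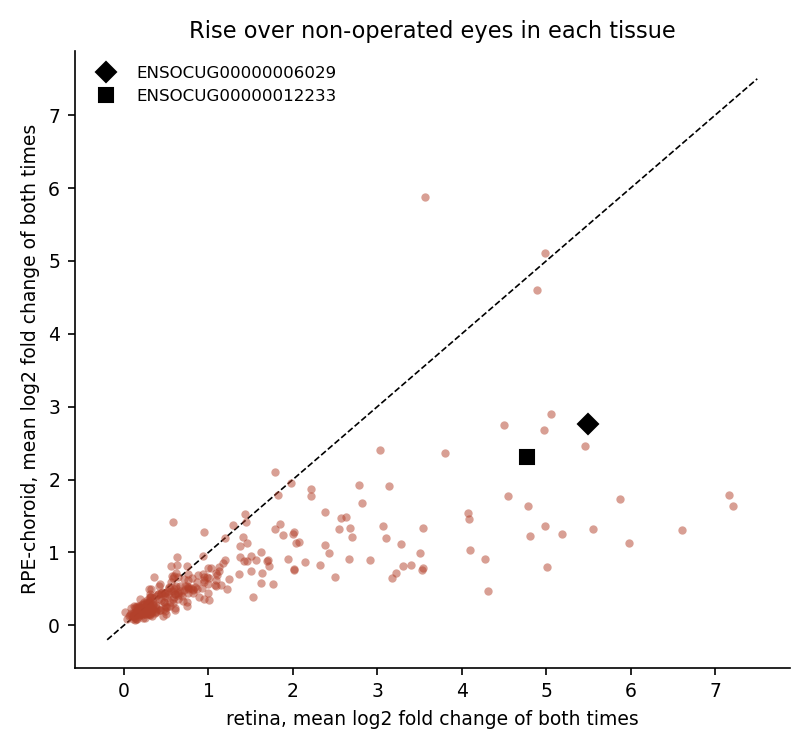
Mean fitted log2 fold change over non-operated eyes of both times in retina (x axis) and RPE-choroid (y axis), 1 point for each of the 296 members, with the line of equal change dashed and the 2 named members in black. Of the points, 222 lie on the retina side of the line.

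Because the retina-high score differed between RPE-choroid samples, the members were also compared in pairs of RPE-choroid samples with like scores. This comparison was chosen after the data were seen. The pair with the lowest scores was 2-month replicate 3 (-0.83) and non-operated replicate 2 (-0.18). Between them the members were higher by a median log2 ratio of 0.38, with quartiles at 0.22 and 0.67, while the median over all 14282 genes was -0.01. In a pair with high scores, 1-month replicate 2 (6.73) and non-operated replicate 3 (6.67), the median ratio of the members was 0.53 and that of all genes 0.06. In another pair, 2-month replicate 1 (4.62) and non-operated replicate 1 (5.30), the medians were 0.50 and 0.10. The direction is fixed by the choice of members, which also bears on the size, and each pair sets 1 sample against 1. The median ratio was 0.38 where the scores were lowest and 0.53 where they were highest. The part of retina RNA in these ratios was not tested. Between non-operated replicates 3 and 2, which had the widest gap in score of that group, the median ratio of the members was -0.01, and 84.8% of the members against 48.2% of all genes stayed within 0.5 log2 units. That closeness is partly what the ordering asks for.

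The tissues were compared in non-operated eyes by edgeR's test over all 15727 genes of the 6 samples. Of the members, 70 of the 289 tested were higher in RPE-choroid (24.2%, where 23.9% of all genes tested were) and 3 were higher in retina (1.04%, against 4.29%). The share higher in RPE-choroid was thus close to that of all genes tested, and the share higher in retina lay below it. The genes tested include some below the minimum level, which could not be members, so the sets are unlike. With the replicate number as a block the counts were 48 (16.6%, against 18.8% of all genes tested) and 1 (0.346%, against 2.16%). Without single samples the total of 73 fell to 35 (RPE-choroid replicate 1), 30, 34 and 32 (retina replicates 1, 2 and 3), and it was 100 without RPE-choroid replicate 3. The number of all genes called lower in retina moved in the same direction, from 3754 to 2382, 2171, 2310 and 2164 in the order of these samples, and to 4777 in the last case. The median log2 difference, retina minus RPE-choroid, was -0.24 for members and 0.01 for all genes tested. With upper-quartile normalisation both moved up, to -0.09 and 0.17. The ranges of the 3 samples of each tissue did not overlap, with retina lower, in 121 members (40.9%, against 27.9% of the 14282 genes), and with retina higher in 22 (7.43%, against 33.1%). The retina-high score was 5.30 and 6.67 in RPE-choroid replicates 1 and 3 and -0.18 in replicate 2, and its part in this comparison was not tested. The 7 members not tested had too few counts, with at most 0.386 CPM in either tissue.

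In the 70 members that were higher in non-operated RPE-choroid, the medians of both tissues lay close together after surgery. Their median in non-operated eyes was 6.57 CPM in retina and 25.7 CPM in RPE-choroid. At 1 month the medians were 45.6 CPM in retina and 50.01 CPM in RPE-choroid, and at 2 months 49.4 and 53.0 CPM. The median log2 fold change of the 70 was 2.37 and 2.23 in retina, against 0.58 and 0.91 in RPE-choroid. The 216 members called in neither direction had median changes of 0.53 and 0.48 in retina, against 0.43 and 0.34 in RPE-choroid. The tissue comparison and these changes share the non-operated samples, so a low value there lowers the one and raises the other. The RPE-choroid-high score in retina moved with these changes, from -0.23 to -0.11 in non-operated eyes and from 0.27 to 1.13 in operated eyes, and its part in them was not tested.

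The 3 members higher in retina did not behave alike. One, a member at group means of 0.945 CPM in retina and 0.274 CPM in RPE-choroid of non-operated eyes, went to 48.2 and 23.7 CPM in retina and to 30.9 and 3.41 CPM in RPE-choroid. Another stood at 54.5 CPM in retina and 34.6 CPM in RPE-choroid, and reached 76.3 and 77.5 CPM in retina, with 69.7 and 47.9 CPM in RPE-choroid. The remaining one stayed under 2 CPM in every group mean. All 3 had their higher RPE-choroid mean at 1 month.

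Over all 296 members, the log2 ratio of the retina to the RPE-choroid group mean (0.5 CPM added) had a median of -0.15 without surgery, 0.04 after 1 month and 0.12 after 2 months. The ratio was within 2-fold for 250 members without surgery, 294 after 1 month and 269 after 2 months. Among all 14282 genes the share within 2-fold also moved, from 69.5% to 92.9% and 67.5%, against 84.5%, 99.3% and 90.9% of the members. At 1 month the retina-high score was 5.73 or more in all 3 RPE-choroid samples; its part in the narrowing was not tested.

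The levels at 2 months were compared with those at 1 month. The choice of members bears on this comparison, because a gene back at its non-operated level by 2 months could not meet the ordering, and 41 members under 1 CPM in non-operated retina reached the minimum level only through the 1-month retina. In retina, of the 296 members, 0 were called in either direction by edgeR (0.0063% of all genes tested higher, 0.0% lower). DESeq2 also called 0 (0.154% and 0.129% of the 23306 genes with any count). At an unadjusted p under 0.05 there was 1 higher (1.86% of all genes tested) and 5 lower (2.17%), and the smallest adjusted p of a member was 0.764. The median log2 change was -0.03 for members and 0.01 for all genes tested, and 271 members (91.6%, near the 89.4% of all genes tested) lay within 0.5 log2 units. Leaving out 2-month replicate 3 turned the median to 0.04, and leaving out both other 2-month samples moved it to -0.24. The sample ranges did not overlap in 5 members that were higher at 2 months (1.69%, against 4.08% of the 14282 genes) and 10 that were lower (3.38%, against 3.48%). In ENSOCUG00000006029, which had the widest gap between its 2-month retina samples of the 2 named members, they ranged from 61.6 to 600 CPM.

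In RPE-choroid the test by edgeR again called 0 members (0.0% of all genes tested in either direction), with a smallest adjusted p of 0.0503. On simulated counts edgeR found only 4% of the 2-fold and 45% of the 4-fold changes in this comparison, so 0 calls do not show unchanged levels. At an unadjusted p under 0.05 there were 17 higher (18.9% of all genes tested) and 41 lower (11.5%). DESeq2, for which 45 of 135 calls were false on counts simulated for this comparison, called 42 members, 7 higher (8.6% of all genes tested) and 35 lower (5.42%). Among members the lower calls thus outnumbered the higher ones, while over all genes the higher ones were more frequent. Sample ranges did not overlap in 89 members that were lower at 2 months (30.1%, against 29.2% of the 14282 genes) and in 21 that were higher (7.09%, against 18%). The median log2 change was -0.01 for members and 0.01 for all genes tested. The retina-high score of RPE-choroid was lower in each 2-month sample than in each 1-month sample, and its part in these counts was not tested.

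The member with the smallest p in RPE-choroid was at 80.3, 100.8 and 68.3 CPM at 1 month and at 38.2, 40.7 and 20.7 CPM at 2 months, with 18.03 to 19.5 CPM in non-operated eyes. The sample ranges of both times were well apart, and one 2-month sample was close to the non-operated ones. Its log2 change was -1.26 ± 0.22 (SE, edgeR adjusted p = 0.0503). The next was at 13.4, 17.7 and 16.4 CPM at 1 month and 5.96, 6.25 and 6.28 CPM at 2 months, against 3.07 to 5.01 CPM in non-operated eyes (log2 change -1.28 ± 0.23, edgeR adjusted p = 0.0503).

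The change from 1 to 2 months was also compared between the tissues, in 1 edgeR fit of all 18 samples that was added after the data were seen. Of the 296 members 0 passed the test of the difference, with a smallest adjusted p of 0.0789. Of 16846 genes tested, the change was higher in retina for 1 and lower for 23. At an unadjusted p under 0.05 there were 12 members higher and 14 lower, against 1445 and 2184 of the 16846 genes. The 2-month samples lay below all 1-month samples in both tissues for 6 members (2.03%, against 1.6% of the 14282 genes) and above them in both for 0 (0.714% of genes). For 2 members they lay above in retina and below in RPE-choroid (0.676%, against 0.77%).

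**Figure D5:**
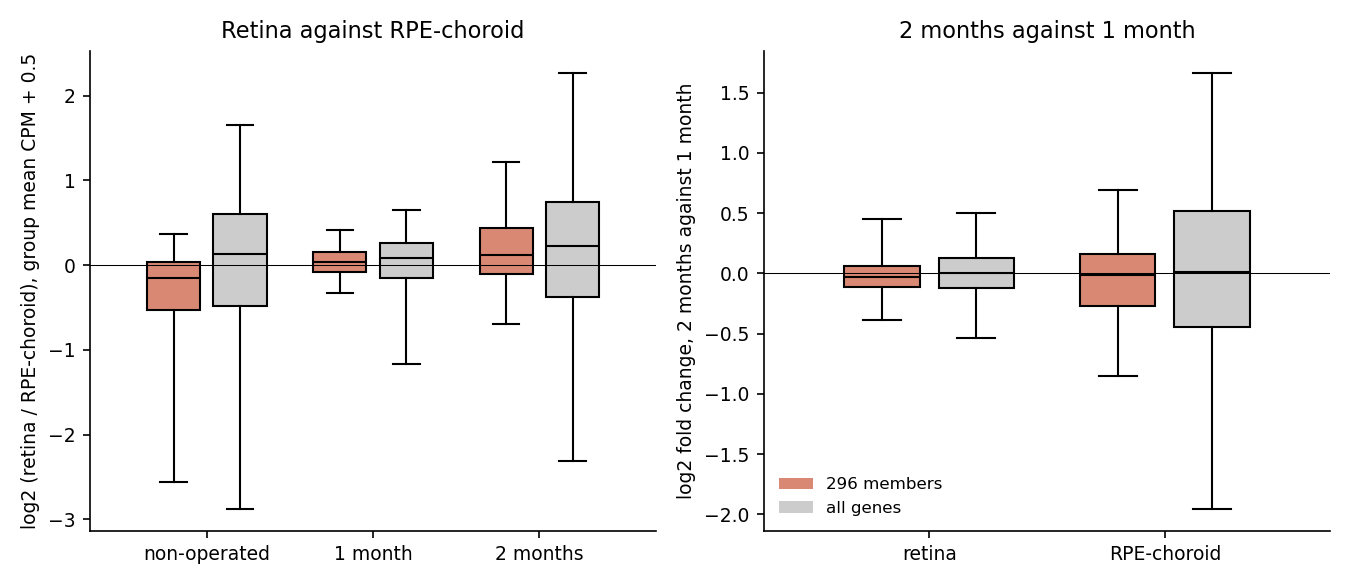
Left, log2 ratio of retina to RPE-choroid group mean CPM (0.5 added) by time, for the 296 members and the 14282 genes at the minimum level; right, fitted log2 fold change of 2 months against 1 month by tissue, for the members and all genes tested. Boxes show the quartiles and the median, and whiskers the range from the 5th to the 95th percentile; the members' medians go from -0.15 to 0.04 and 0.12 on the left and lie at -0.03 and -0.01 on the right.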

How the data were processed

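Counts of 18 samples of rabbit retina and RPE-choroid, 3 per tissue and group, were used. The authors deposited raw counts per Ensembl gene, made by trimming with Trim Galore, alignment to OryCun2.0 with HISAT2 and counting with HTSeq. Tool versions, the annotation release and the strand setting are not given in the sources used here. Genes that share reads with copies or overlap others are uncertain. The 5 HTSeq summary rows, which held 46.6% to 52.9% of each column, were left out of library sizes and tests. The table of gene names for mOryCun1.1 (38822 rows) matched 0 identifiers, so the lists by symbol could not be used, and checks of GC content and length are void.

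CPM used the summed gene counts. edgeR 4.0.16 in R 4.3.3 (TMM, filterByExpr at 10 counts per sample and 15 in total, two-sided robust quasi-likelihood F test, p-values adjusted by Benjamini-Hochberg over all genes, threshold 0.05) was fitted to the 9 samples of each tissue, and to the 6 non-operated samples for the tissue comparison. Standard errors were taken from the log2 fold change and the F statistic. The study used DESeq2 (here 1.42.0, an alternative). The identifiers printed are the 2 members with the largest smallest-of-4 fitted log2 fold change among those with a mean of at least 1 CPM in non-operated samples of both tissues. DESeq2, other normalisations and filters, other sets of samples and each sample left out were tried as alternatives. The members and lists were chosen with earlier results of these data known.

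Over genes other than those with the lowest counts, replicates differed by far more than sampling noise. Counting error weighs more on genes with few reads, such as the 41 members under 1 CPM in non-operated retina and the 25 in non-operated RPE-choroid. On simulated counts with 200 changed genes, edgeR found 54% of the 2-fold and 81% of the 4-fold changes for retina at 2 months against 1 month (15644 genes), 4% and 45% for RPE-choroid (16064 genes), and 2% and 47% for the tissues in non-operated eyes (15511 genes). False calls of edgeR were 11 of 146, 1 of 50 and 3 of 52, and those of DESeq2 36 of 187, 45 of 135 and 76 of 176. Each gene was drawn on its own with edgeR's dispersions, so these shares need not hold where samples differ in many genes together. Replicate numbers came from the labels. Same-numbered samples deviated together in each of 3 pairs for RPE-choroid at 2 months against 1 month (correlations 0.18, 0.37 and 0.40) and for the tissues in non-operated eyes (0.40, 0.17 and 0.15). Samples of 1 and 2 months came from animals euthanised at different times, so they share no eye. Whether same-numbered samples of both tissues share an eye is not stated.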

Additional observations from a re-analysis of the deposited data

Results flagged for a closer look

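The multi-aligned share, which no comparison used, was above the highest non-operated sample of the same tissue (9.38% in retina, 9.32% in RPE-choroid) in 6 operated samples. In retina it was 11.66% and 11.09% in 2-month replicates 1 and 2. In RPE-choroid it was 13.67%, 13.22% and 9.96% in 2-month replicates 1, 2 and 3, and 9.62% in 1-month replicate 3. The other operated samples lay within the non-operated range of their tissue. Without 2-month replicates 1 and 2 of both tissues, 388 genes met the ordering, all 296 members among them. A fit of retina without these replicates left 1 sample at 2 months, so only the change is given. The median log2 fold change of the members over non-operated retina was then 0.43 instead of 0.64. Both the higher multi-aligned share and the higher summed level of the members were seen in 2-month retina replicates 1 and 2, and whether one bears on the other was not tested.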

How the results depend on the processing

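The number of genes that met the ordering was 152 on TMM-scaled CPM, 312 without a minimum level, 255 with a minimum of 5 CPM and between 296 and 525 with 1 sample left out. Leaving out 1 sample gave 119 to 154 called members in retina at 1 month, 98 to 203 in retina at 2 months, 0 to 66 in RPE-choroid at 1 month and 30 to 100 between the tissues in non-operated eyes. Higher calls over all genes ran from 847 to 1338, 602 to 2357 and 0 to 674 in the first 3 comparisons. Between the tissues, calls of genes lower in retina ran from 2164 to 4777. Leaving out both 2-month samples with the larger multi-aligned share, chosen after the data were seen, gave 29 in retina at 2 months, with 1 sample left in that group that was assumed to vary like the others (192 higher calls over all genes, instead of 1304). For RPE-choroid at 1 month, where 1 member was called, the count was 103 with DESeq2, 86 with all 18 samples in one fit, 5 with upper-quartile normalisation, 4 without a filter, 6 where each sample needed 10 counts, and 0 with only the 2 groups compared. Higher calls over all genes were 549, 526, 7, 5, 8 and 0 in the same order. For RPE-choroid at 2 months against non-operated eyes it was 51 with DESeq2 and 0 under the other 14 alternatives. For RPE-choroid at 2 months against 1 month, where 0 were called, it was 42 with DESeq2, 32 with all 18 samples, 17 with only the 2 groups, 14 where each sample needed 10 counts and 3 without a filter. Higher calls over all genes were 1990, 2231, 1963, 835 and 396 in the same order, and lower calls 1255, 1561, 990, 249 and 72. In retina at 2 months against 1 month it was 0 under all 15 alternatives.

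With a replicate block the counts were 159 and 129 in retina at 1 and 2 months, with 1299 and 919 higher calls over all genes. They were 0 and 0 in RPE-choroid, 0 in each tissue for 2 months against 1 month, and 49 between the tissues. Every same-numbered pair correlated by more than 0.1 in the RPE-choroid comparison of 2 months with 1 month and in the tissue comparison. In the former the samples came from animals euthanised at different times, so the number pairs no eyes. RPE-choroid replicate 3 had the lowest retina-high score at 1 month (5.73) and at 2 months (-0.83), and its part in these correlations was not tested. In the other comparisons at least 1 pair correlated by 0.1 or less. The common biological coefficient of variation between samples was 0.23 in retina, 0.42 in RPE-choroid and 0.38 across the non-operated samples. The cause of the differences between settings was not tested.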
